A study of Mus musculus with 29 samples.

Results

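The 9 genes described here encode secreted proteins of the acute-phase response and of complement: Saa3, Lcn2, Hp, Serpina3n, C3, C4b, C1s1, C1ra and Serping1. They were taken by gene name from a count table of 55357 genes, and each name matched 1 row. The table holds 29 RNA-seq libraries in 10 groups, all from primary cardiac fibroblasts of mice, the connective tissue cells of the heart. Freshly isolated cells came from young mice (n = 3) and aged mice (n = 3). The other 23 libraries came from young or aged cells cultured for 48 h on 4 DECIPHER substrates, hydrogels that carry extracellular matrix (ECM), named SoftY, StiffY, SoftA and StiffA. The names are read here as soft or stiff gels with young (Y) or aged (A) ECM. Each combination of cell age and substrate had 3 libraries, except young cells on SoftY, which had 2. The labels name no transgene, allele or drug, and no source used here gives the age in months, strain or sex of the mice. Replicates are numbered as biological in the labels but not tied to animals, so the p-values below measure the spread between these libraries.

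The acute-phase response is a change in secreted proteins that follows injury or infection, and it is known best from the liver, where interleukin 6 and interleukin 1 act through STAT3, NF-kB and C/EBP factors. Complement is a cascade of plasma proteases and their substrates: the C1 complex, with its proteases C1r and C1s, cleaves C4 and C2, and the resulting convertase cleaves C3. Fibroblasts also transcribe many of these genes, and complement made in the tissue itself is known from injured heart and other organs.

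Among the acute-phase members, Saa3 (ENSMUSG00000040026, chr7:46361422-46365125, mm39) encodes a serum amyloid A protein made mainly outside the liver. Lcn2 (ENSMUSG00000026822, chr2:32274645-32278265) encodes lipocalin 2, which binds iron-carrying siderophores. Hp (ENSMUSG00000031722, chr8:110301760-110305805) encodes haptoglobin, which binds free haemoglobin. Serpina3n (ENSMUSG00000021091, chr12:104372988-104380589) encodes a secreted inhibitor of serine proteases. C3 (ENSMUSG00000024164, chr17:57510970-57535137) and C4b (ENSMUSG00000073418, chr17:34947354-34962857) encode the complement components C3 and C4. C1s1 (ENSMUSG00000038521, chr6:124507304-124519319) and C1ra (ENSMUSG00000055172, chr6:124489364-124500403) encode C1s and C1r, and the genes lie 6900 bases apart. Serping1 (ENSMUSG00000023224, chr2:84595731-84605789) encodes the C1 inhibitor, which inactivates both proteases. C4b, C1s1 and C1ra have near copies (C4a, C1s2 and C1rb), and Saa3 and Serpina3n belong to families of similar genes, so the division of reads between copies is uncertain for these 5.

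Promoter sequence, taken from RefSeq on GRCm38.p6 as the 250 bases before a gene's start, was matched for 6 of the 9 genes (not for Hp, C4b or Serping1). The windows of Saa3 and C3 are shown because they are the members with a match to a motif other than the loose C/EBP one. That of Serpina3n is shown as the member not called lower on stiff gels in young cells. Capitals mark matches on either strand to TTNCNNNAA (letters searched as a loose C/EBP motif) and, in Saa3 and C3, to an interferon response motif (GAAA, any 2 bases, GAAA) and an NF-kB palindrome (GGG, any 4 bases, CCC).
Saa3, chr7:46715677-46715926, minus strand: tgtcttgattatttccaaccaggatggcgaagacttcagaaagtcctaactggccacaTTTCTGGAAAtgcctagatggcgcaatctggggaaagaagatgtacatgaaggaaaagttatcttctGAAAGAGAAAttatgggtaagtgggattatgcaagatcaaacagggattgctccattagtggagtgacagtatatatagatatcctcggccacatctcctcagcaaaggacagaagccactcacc
C3, chr17:57228137-57228386, minus strand: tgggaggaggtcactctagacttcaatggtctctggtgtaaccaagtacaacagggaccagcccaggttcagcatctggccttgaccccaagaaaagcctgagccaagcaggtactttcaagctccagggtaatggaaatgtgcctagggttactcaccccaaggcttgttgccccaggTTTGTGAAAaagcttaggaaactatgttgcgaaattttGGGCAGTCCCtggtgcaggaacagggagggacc
Serpina3n, chr12:104406458-104406707, plus strand: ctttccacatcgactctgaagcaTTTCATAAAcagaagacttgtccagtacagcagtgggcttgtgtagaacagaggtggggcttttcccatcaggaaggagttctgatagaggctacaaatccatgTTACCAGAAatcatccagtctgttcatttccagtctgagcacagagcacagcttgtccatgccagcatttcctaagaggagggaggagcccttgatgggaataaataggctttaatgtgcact
C1s1 has 2 annotated starts with overlapping windows, which gave 7 windows in all. The letters TTNCNNNAA stood in 6 of the 7 windows, all but that of Lcn2, and in 32.93% of 32851 windows over all genes. In Saa3 the capitals from 192 to 183 bases before the start hold overlapping matches on both strands. The interferon response motif stood in the Saa3 window, 125 to 116 bases before the start, and in 2.977% of all windows. The NF-kB palindrome stood in the C3 window, 33 to 24 bases before the start, and in 10.33% of all windows. The letters TTGCNNCAA, searched as a stricter C/EBP motif, the NF-kB letters GGGNNTTCC and the STAT letters TTCNNNGAA stood in 0 of the 7 windows, against 1.738%, 4.977% and 7.02% of all windows. Both C/EBP patterns set their half-sites wider apart than the usual palindrome, so usual C/EBP sites can go unmarked and uncounted here. A match here is a description of the letters and not a binding site.

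Library totals ran from 1192668 to 3275089 counts, so a gene at 10 CPM (counts normalized to library size with TMM factors) rested on 12 to 33 counts. Lcn2 had fewer than 10 counts in 12 libraries, Saa3 in 2 and C4b in 1, and no member was at 0 in any library. All 8 fibroblast markers examined had counts in every group, with a summed level of 6294 to 7731 CPM in fresh and 17123 to 28276 CPM in cultured libraries. Among 5 hepatocyte markers, Ttr, Apoa1 and Fgb were at 0 in every group, and the sum of the 5 did not pass 1.18 CPM in any library.

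Per length, the C1 inhibitor transcript stood far above the other members in all 10 groups. Serping1 reached 2172 CPM per kb of exon in young cells on SoftY, and its lowest level was 220.7 in fresh aged cells. The highest group levels of Hp, Serpina3n and C3 were 191.5, 189.5 and 171.9 CPM per kb, those of C1s1, Lcn2, Saa3 and C1ra were 48.5, 33.8, 29.9 and 24.5, and that of C4b was 13.8. The widest ranges across groups were those of Lcn2, whose highest group mean was 67.9 times its lowest, and of Serpina3n, at 50.8 times. C1ra varied least, by 3.22 times.

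**Figure D1:**
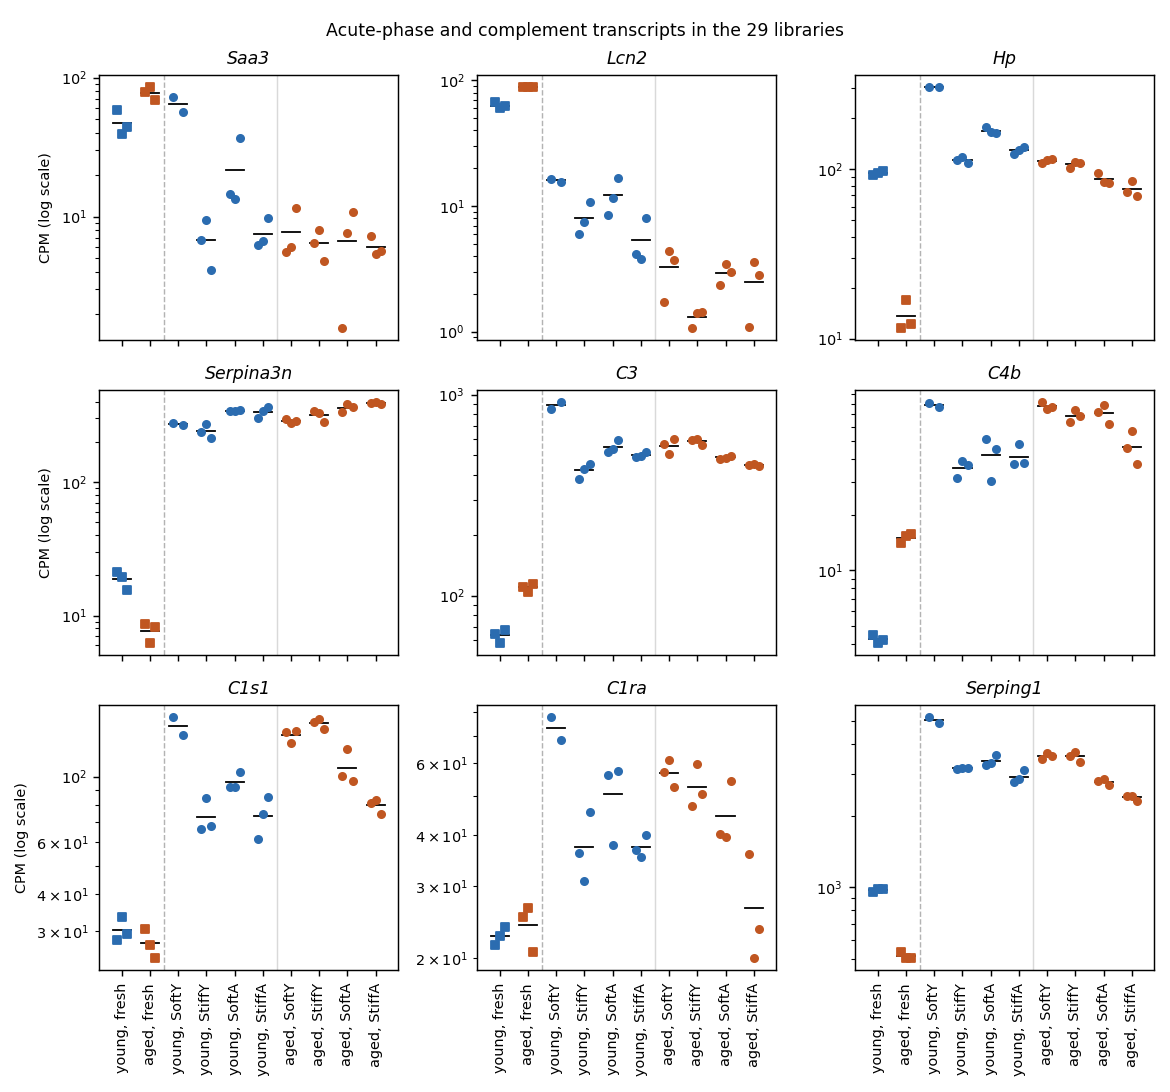
CPM on a log scale in each of the 29 libraries (squares fresh, circles cultured, blue young cells, orange aged cells, short lines group means), with 1 panel per member and 10 groups along the x axis. Saa3 and Lcn2 are highest in fresh cells, the other members in culture, and 5 of the 9 members have their highest group mean in young cells on SoftY (2 libraries). The share of all genes with their highest mean there was not computed.

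In freshly isolated cells, 4 members were higher and 3 lower in aged than in young mice. This comparison asks what differs between cardiac fibroblasts of young and aged mice before any culture. Of the 9 members 7 were called at an adjusted p under 0.05 (edgeR quasi-likelihood test with Benjamini-Hochberg adjustment), where 31.8% of the 11786 genes tested were called, 15% higher and 16.8% lower. In bulk RNA, fewer cells of a type and less RNA per cell cannot be told apart.

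Haptoglobin RNA differed most. Its level was 92.4, 94.8 and 97.7 CPM in the 3 young libraries and 11.6, 17.0 and 12.1 CPM in the 3 aged ones. Every aged library lay far below every young one, and Hp fell by 2.84 on the log2 scale (SE 0.15, n = 3 and 3, adjusted p = 5.70e-09 by edgeR). Serping1 stood at 954, 987 and 981 CPM in young and 532, 503 and 505 CPM in aged cells. The C1 inhibitor transcript was therefore 1.95-fold lower with age, with no overlap (log2 fold change −0.96 ± 0.05 (SE), edgeR adjusted p = 3.49e-09). Serpina3n fell 2.50-fold, from 21.2, 19.5 and 15.4 CPM to 8.67, 6.22 and 8.23 CPM (−1.32 ± 0.25, edgeR adjusted p = 9.45e-04).

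The components C3 and C4 went the other way. C4b was at 4.45, 4.02 and 4.21 CPM in young cells, on 9 to 14 counts each, and at 14.0, 15.3 and 15.7 CPM in aged cells. That is a rise of 1.79 ± 0.28 on the log2 scale (edgeR adjusted p = 1.96e-04), the widest of the members that were higher. C3 rose from 64.4, 58.0 and 67.8 CPM to 110.6, 104.0 and 114.8 CPM (0.76 ± 0.11, edgeR adjusted p = 7.00e-05). The inducible secreted proteins Saa3 and Lcn2 rose less, by 0.69 ± 0.16 and 0.45 ± 0.10 on the log2 scale (edgeR adjusted p = 0.00380 and 0.00422). For the C1 proteases no difference was called, with −0.20 for C1s1 (approximate 95% interval −0.52 to 0.13) and 0.06 for C1ra (−0.29 to 0.40). Of the complement members, the substrates C3 and C4b thus rose, the proteases were not called, and the C1 inhibitor fell.

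Markers of other cells moved with age as well. The summed level of 12 macrophage and myeloid markers was 220 to 221 CPM in young and 389.5 to 443 CPM in aged fresh libraries, and 6 of 10 tested were higher and 0 lower. Of 10 neutrophil markers, 3 were tested and all 3 were higher, the sum rose from 37.0 to 38.8 CPM in young to 63.6 to 72.1 CPM in aged cells, and S100a9, Retnlg and Elane were at 0 in both groups. Of 8 fibroblast markers, 2 were higher and 5 lower. The part of these shifts in the higher Lcn2, Saa3, C3 and C4b was not tested.

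Other genes of the same responses changed in both directions with age in fresh cells. Of 8 other acute-phase genes tested, 3 were called higher and 4 lower (median log2 fold change −0.45, against −0.02 over all genes). Steap4, a metalloreductase of the same response, fell by 2.33, and Cp, which encodes the ferroxidase ceruloplasmin, by 0.78 on the log2 scale. Of 8 other complement components tested, 0 were higher and 2 lower (median log2 fold change −0.18). Of 10 regulators and receptors of complement, 6 were higher and 2 lower, among them Cd55, which dissociates the convertases (1.40), and the fluid-phase inhibitor Clu (−1.23). Of 33 inducers and transducers, 9 were higher and 11 lower: Lif, a cytokine of the interleukin 6 family, rose by 2.65, while the shared receptor chain Il6st fell by 0.80.

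After 48 h on the gels, 7 members were higher and 2 lower than in fresh cells, at both cell ages. The comparison sets the mean of the 4 substrates against fresh cells of the same age, and takes in isolation, the medium and time as well as the gels. All 9 members were called at each age, where 56.9% of 13523 genes were called in young and 62.4% in aged cells. By direction the background was 27.1% higher and 29.9% lower in young and 29.9% higher and 32.5% lower in aged cells. A share so high leaves the number of calls with little information, and the sizes are given instead.

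Serpina3n rose most. In young cells it went from 15.4 to 21.2 CPM fresh to 213.7 to 365.5 CPM over 11 cultured libraries, a 15.5-fold rise (3.96 ± 0.11 (SE) on the log2 scale, edgeR adjusted p = 1.80e-23). In aged cells it rose 43.5-fold (5.44 ± 0.13, edgeR adjusted p = 1.22e-25). No cultured library came near a fresh one. Among the complement genes, C3 rose 8.93-fold in young and 4.71-fold in aged cells, C4b 11.0-fold and 4.32-fold, and C1s1 3.07-fold and 4.25-fold. C1ra rose 2.08-fold and 1.80-fold, the least of the complement members. Serping1, already abundant, rose 3.64-fold in young and 5.90-fold in aged cells. Hp rose 1.75-fold and 6.95-fold.

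Saa3 and Lcn2 fell. Lcn2 stood at 60.1 to 67.1 CPM in fresh young and 88.3 to 89.3 CPM in fresh aged cells. In culture it was at 3.82 to 16.9 CPM in young and 1.07 to 4.36 CPM in aged cells, log2 fold changes of −2.73 ± 0.16 and −5.19 ± 0.17 (edgeR adjusted p = 1.44e-15 and 1.00e-21). Saa3 fell by 1.52 ± 0.22 in young and by 3.48 ± 0.21 in aged cells (edgeR adjusted p = 6.19e-07 and 5.25e-15). In young cells its ranges overlapped, since both SoftY libraries, at 72.9 and 56.2 CPM, lay as high as fresh cells. With SoftY left out of the means, Saa3 fell by 2.17 in young cells.

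**Figure D2:**
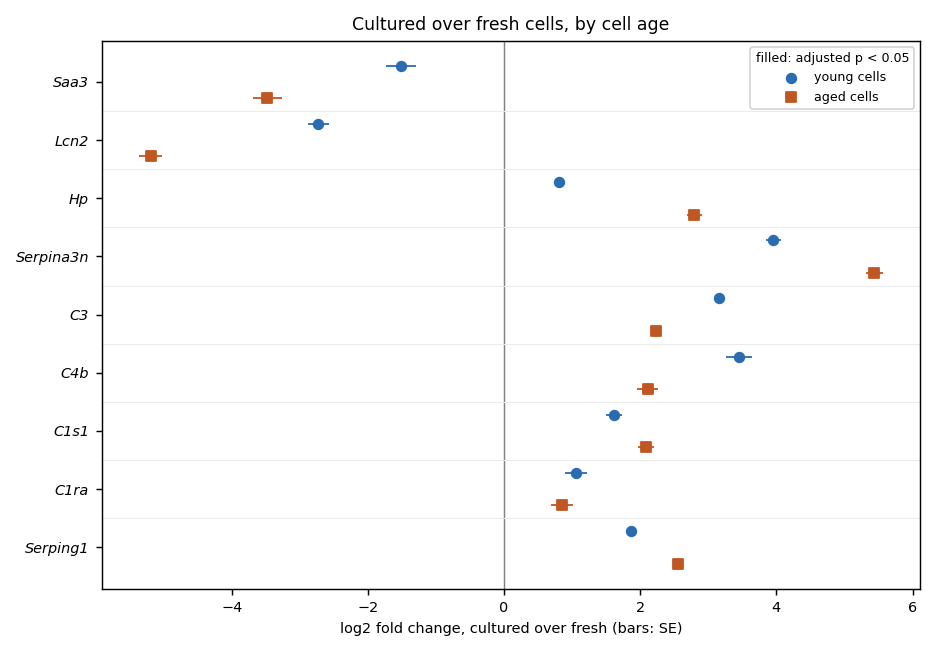
Log2 fold change of cultured over fresh cells (x axis) for the 9 members (y axis), with the SE as bars; circles are young cells, squares aged cells, and all points are filled because all passed an adjusted p of 0.05. Serpina3n lies farthest right, at 3.96 and 5.44, and Lcn2 farthest left, at −2.73 and −5.19.

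Markers of myeloid cells fell with culture too: of 10 tested, 0 were higher and 8 lower in young and 10 lower in aged cells, and the sum of the 12 was 23.4 to 69.0 CPM in cultured libraries. All 3 neutrophil markers tested fell at both ages, and of 7 endothelial markers tested 6 were lower and 1 higher at both ages. Of 8 fibroblast markers 6 were higher and 1 lower in young cells, and 5 higher and 2 lower in aged cells. The part of these shifts in the members' values was not tested.

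Around the members, 10 other complement components were tested, with 5 higher and 4 lower in young and 4 higher and 3 lower in aged cells. Among those that fell in young cells were Cfb and Cfp of the alternative pathway, by 2.69 and 3.59 on the log2 scale. Of 12 regulators and receptors, 7 were higher and 5 lower in young and 5 higher and 5 lower in aged cells. Of 15 other acute-phase genes tested, 11 rose and 4 fell in young and 9 rose and 5 fell in aged cells. Those that fell include the long pentraxin Ptx3 (−1.85 in young and −2.50 in aged cells) and the interleukin 1 receptor antagonist Il1rn (−4.34 and −7.19). Of 34 inducers and transducers, 7 were higher and 17 lower in young and 10 higher and 17 lower in aged cells. The cytokine Il6 fell (log2 fold changes −1.85 and −2.62), as did the NF-kB inhibitor Nfkbia (−1.99 and −3.02), while Il6st rose (0.98 and 1.69).

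The change with culture itself differed between cell ages for 8 of the 9 members, where 20.6% of genes were called, 10.5% with higher and 10.1% with lower values. A positive difference means a larger log2 change in aged cells. It was 1.99 ± 0.13 for Hp, 1.49 ± 0.18 for Serpina3n and 0.70 ± 0.06 for Serping1, and those are the 3 members that were lower in fresh aged cells. For Lcn2 it was −2.46 ± 0.26, for Saa3 −1.96 ± 0.33, for C4b −1.34 ± 0.26 and for C3 −0.92 ± 0.10, which are the 4 that were higher in fresh aged cells. The fresh libraries enter both comparisons, so the match in direction is not separate evidence. For C1s1 it was 0.47 ± 0.16 (edgeR adjusted p = 0.0357), a call that ended with DESeq2 (0.47, adjusted p = 0.0708) and in 5 of the 29 fits that left out 1 library (adjusted p up to 0.144, without fresh young replicate 2). C1ra was not called (−0.21 ± 0.22). With SoftY left out of the means the value of Saa3 was −1.36 (adjusted p = 0.0052).

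On stiff gels young cells held less RNA of 8 of the 9 members than on soft gels, the exception being Serpina3n. The comparison asks how young fibroblasts respond to stiffness, averaged over both kinds of ECM. The 8 calls were all lower, where 3.56% of 12841 genes were called and 1.66% were called higher and 1.9% lower, and the members' median log2 fold change was −0.70 against 0.00115 over all genes. Saa3 fell most, by 2.31 ± 0.28, then Lcn2 by 1.12 ± 0.26, Hp by 0.91 ± 0.07, C1ra by 0.70 ± 0.14 and C1s1 by 0.70 ± 0.09. C3 fell by 0.61 ± 0.06, C4b by 0.57 ± 0.13 and Serping1 by 0.45 ± 0.04 (edgeR adjusted p from 1.63e-09 for Hp to 0.0124 for Lcn2). Serpina3n differed by −0.10 ± 0.07 (edgeR adjusted p = 0.589). The call of Lcn2 ended without young SoftY replicate 1 (−1.10, adjusted p = 0.0586).

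The kinds of ECM were then taken apart, in comparisons of single pairs of groups added after the data were seen. On young ECM 7 members were lower on the stiff gel, where 4.56% of genes were called, 2.12% higher and 2.45% lower. Saa3 was at 72.9 and 56.2 CPM in the young SoftY libraries and at 6.83, 9.37 and 4.14 CPM on StiffY. Hp was at 307.7 and 307.4 CPM on SoftY and at 113.4, 117.9 and 109.3 CPM on StiffY. C3 stood at 846 and 922 CPM on SoftY and at 380, 428 and 451 CPM on StiffY. None of these 3 genes overlapped between the gels, and they fell by 3.15 ± 0.39, 1.43 ± 0.10 and 1.07 ± 0.09 on the log2 scale. The share of all genes without overlap between these 2 and 3 libraries was not computed.

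The other complement members were also lower on the stiff gel of young ECM. C4b went from 80.8 and 77.0 CPM to 31.8, 39.1 and 37.3 CPM (−1.13 ± 0.18), and C1s1 from 159.3 and 138.3 CPM to 66.7, 84.4 and 67.9 CPM (−1.02 ± 0.14). Serping1 fell from 5208 and 4892 CPM to 3137, 3186 and 3161 CPM (−0.67 ± 0.07). C1ra fell by 0.99 ± 0.21, a call that ended without young SoftY replicate 1 (−0.90, adjusted p = 0.0832). For Lcn2 the difference was −1.04 ± 0.37 (adjusted p = 0.121, on 13 to 50 counts a library, and called with all 29 libraries in 1 fit at −1.07, adjusted p = 0.0266), although its libraries did not overlap.

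On aged ECM no member was called for stiffness in young cells by edgeR, where 0.21% of genes were called, 0.125% higher and 0.0857% lower. At an unadjusted p under 0.05 there were 5 of 9, and DESeq2 called 2, Hp and Serping1. The shares of all genes by these 2 criteria are not given, and the 0.21% is not their background. Saa3 was at 14.6, 13.3 and 36.8 CPM on SoftA and at 6.22, 6.69 and 9.70 CPM on StiffA, which do not overlap (−1.46 ± 0.40, edgeR adjusted p = 0.184). Without a filter on low counts edgeR called Saa3 (−1.44, adjusted p = 0.0029). Of the 9 members 5 did not overlap between these gels, but the share of all genes without overlap was not computed. The approximate 95% intervals, not adjusted for the number of genes, lay below 0 for Saa3 (−2.25 to −0.67), Lcn2 (−1.93 to −0.46), Hp (−0.57 to −0.20), C1s1 (−0.63 to −0.12), C1ra (−0.80 to −0.01) and Serping1 (−0.34 to −0.11). Those of C3 (−0.30 to 0.02), C4b (−0.36 to 0.35) and Serpina3n (−0.21 to 0.15) included 0.

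The dependence of the stiffness effect on ECM was tested directly in young cells, and it was called for 4 members, where 0.615% of genes were called, 0.498% higher and 0.117% lower. The log2 change with stiffness was higher, that is less negative, on aged than on young ECM for Hp by 1.04 ± 0.14 (edgeR adjusted p = 5.19e-05) and for C3 by 0.94 ± 0.12 (3.80e-05). The same held for C4b, by 1.13 ± 0.26 (edgeR adjusted p = 0.0366), and for Serping1, by 0.45 ± 0.09 (0.0126). The calls of C3 and Hp held in all 23 fits that left out 1 library. That of C4b ended in 8 of them (adjusted p up to 0.167, without young SoftY replicate 1) and that of Serping1 in 4 (up to 0.161), which left out young SoftY replicate 1, StiffY replicate 1 or 3, or SoftA replicate 1. For Saa3 the difference was 1.69 ± 0.58 (adjusted p = 0.208), and of the alternatives run it was called without young SoftA replicate 3 (2.29, adjusted p = 0.0364) and without a filter on low counts (1.72, adjusted p = 0.0242).

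**Figure D3:**
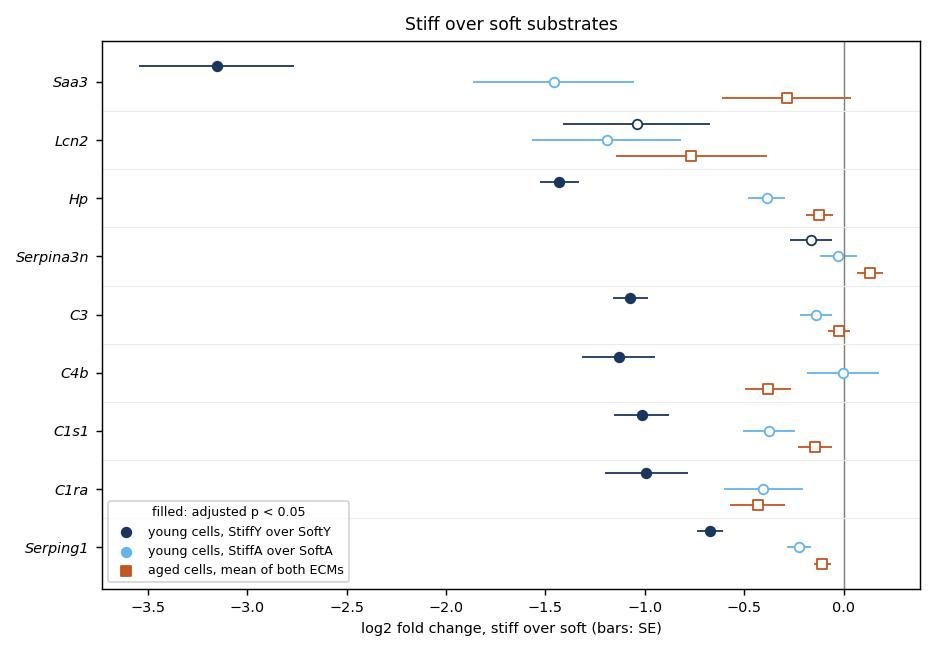
Log2 fold change of stiff over soft gels (x axis, bars SE) for the 9 members (y axis): dark circles are young cells on young ECM, light circles young cells on aged ECM, squares aged cells over both ECMs, and filled points passed an adjusted p of 0.05. The 7 filled points are all young cells on young ECM, from −3.15 (Saa3) to −0.67 (Serping1).

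In aged cells no member was called for stiffness by edgeR or DESeq2, where 0.296% of genes were called by edgeR, 0.00779% higher and 0.288% lower. At an unadjusted p under 0.05 there were 3: C4b (−0.38 ± 0.11), C1ra (−0.43 ± 0.14) and Serping1 (−0.11 ± 0.04). The 95% interval was −0.92 to 0.35 for Saa3, −0.26 to 0.01 for Hp and −0.13 to 0.09 for C3. In CPM, C3 was at 568, 505 and 600 on SoftY and at 597, 599 and 563 on StiffY in aged cells, with overlapping groups. On aged ECM it was at 481, 487 and 496 on SoftA and at 446, 454 and 444 on StiffA, without overlap. Serping1 did not overlap there either (2697 to 2841 against 2311 to 2426 CPM), while Hp did (83.0 to 95.5 against 69.3 to 85.4 CPM). Single pairs of gels were not tested in aged cells, and the share of all genes without overlap was not computed. The stiffness by ECM interaction in aged cells was called for 0 members (0.0234% of genes; 3 members at an unadjusted p under 0.05, 0 by DESeq2), with negative values for C1s1 (−0.55 ± 0.17), C1ra (−0.64 ± 0.27) and Serping1 (−0.21 ± 0.09). For neither comparison was the share of all genes at an unadjusted p computed.

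Averaged over both ECMs, the difference in stiffness response between aged and young cells was itself called for 5 members. All 5 had the higher value in aged cells, where 0.787% of genes were called, 0.319% higher and 0.467% lower. This difference was 2.02 ± 0.44 for Saa3, 0.78 ± 0.10 for Hp, 0.58 ± 0.08 for C3, 0.55 ± 0.13 for C1s1 and 0.34 ± 0.06 for Serping1 (edgeR adjusted p = 0.0182, 1.67e-05, 1.36e-04, 0.0347 and 0.00326). The calls of Hp, C3 and Serping1 held in all 23 fits without 1 library. That of C1s1 ended in 14 of them and that of Saa3 in 3, with adjusted p up to 0.148 and 0.0602. For Saa3 the libraries were young SoftY replicate 1, aged StiffY replicate 2 and aged StiffA replicate 1. On aged ECM, mean CPM of C3 on SoftA and StiffA was 550 and 501 in young and 488 and 448 in aged cells. In the same order it was 3400, 2921, 2775 and 2388 for Serping1 and 95.9, 73.8, 107.1 and 80.0 for C1s1. For Hp it was 168.8, 129.3, 87.4 and 76.1, and for Saa3 21.6, 7.53, 6.70 and 6.07. The difference was not tested on either ECM alone, and young SoftY rests on 2 libraries.

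Genes around the members that fell on stiff gels in young cells were Steap4 (−1.51 ± 0.10), the family member Serpina3i (−0.75), the terminal component C7 (−1.61 ± 0.39) and Clu (−0.41). Steap4 had a stiffness by ECM interaction of 2.33 ± 0.20 in young cells. By list, 2 of 13 other acute-phase genes rose and 2 fell, 1 of 8 other components fell, 2 of 10 regulators fell, and 0 rose and 3 fell of 30 inducers and transducers (Il1r1, Ifngr1 and Relb). Fn1, which rose (0.32), encodes fibronectin and is also known as a matrix gene. Of 8 fibroblast markers 4 were lower and 0 higher, and the myeloid sum was 54.9 to 57.8 CPM on young SoftY and 26.2 to 38.1 CPM on StiffY. Their part in the members' values was not tested.

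Aged ECM, compared with young ECM over both stiffnesses, went with more Serpina3n and less Serping1 RNA at both cell ages. Lower RNA of the complement members C3, C1s1 and C1ra was called in aged cells only. In young cells 3 members were called, where 2.49% of genes were called, 1.67% higher and 0.825% lower: Serpina3n was higher (0.40 ± 0.07) and Hp (−0.34 ± 0.07) and Serping1 (−0.35 ± 0.04) were lower. For C3 the difference was −0.22 ± 0.06 (edgeR adjusted p = 0.0528; −0.22, adjusted p = 0.0133 with DESeq2). For Hp and C3 the mean joins gels on which the levels went opposite ways. On soft gels both were lower on aged ECM, with Hp at 164 to 177 CPM on SoftA against 307.4 to 307.7 CPM on SoftY, and C3 at 518 to 597 CPM against 846 to 922 CPM. On stiff gels both were higher on aged ECM without overlap, with Hp at 123 to 135 CPM on StiffA against 109 to 118 CPM on StiffY, and C3 at 487 to 520 CPM against 380 to 451 CPM. The ECMs were not tested on soft or stiff gels alone, and the share of all genes without overlap was not computed. In aged cells 6 were called, where 7.44% of genes were called, 4.14% higher and 3.3% lower: Serpina3n was again higher (0.32 ± 0.07), and Serping1 (−0.46 ± 0.04), C1ra (−0.65 ± 0.14), C1s1 (−0.63 ± 0.09), Hp (−0.42 ± 0.07) and C3 (−0.28 ± 0.06) were lower (edgeR adjusted p from 5.50e-08 to 0.00367). C4b differed by −0.33 ± 0.11 (adjusted p = 0.0750) and was called with all 29 libraries in 1 fit (−0.34, adjusted p = 0.0439).

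In aged cells the libraries on young and aged ECM did not overlap for 4 of these 6 members, Hp, C3, C1s1 and Serping1, and overlapped for Serpina3n and C1ra. The 6 were called on the same libraries, so this is a description, and the share of all genes without overlap was not computed. C1s1 was at 142.0, 129.8 and 143.3 CPM on SoftY and 153.1, 156.7 and 145.1 CPM on StiffY. It was at 100.3, 124.3 and 96.8 CPM on SoftA and 81.7, 83.6 and 74.5 CPM on StiffA, below every library on young ECM. Serping1 was at 3375 to 3713 CPM over the 6 libraries on young ECM and at 2311 to 2841 CPM over the 6 on aged ECM. The C1 protease C1s and its inhibitor were thus both lower on aged ECM, with no overlap.

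The difference in ECM response between cell ages was called for 0 members (0.0935% of genes, 0.0234% higher and 0.0701% lower), with 1, C1s1, at an unadjusted p under 0.05 (−0.31 ± 0.13) and 0 by DESeq2. The share of all genes at that unadjusted p was not computed. In aged cells Steap4 (−0.87 ± 0.10) and C7 (−1.70 ± 0.32) were lower on aged ECM too. Of 10 regulators and receptors, 2 were higher and 2 lower, and of 8 other components 0 were higher and 2 lower. Endothelial markers moved with ECM in these cells: 3 of 7 tested were higher and 0 lower, and their sum was 102 to 133 CPM on young and 122 to 186 CPM on aged ECM. Their part in these values was not tested.

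Averaged over the 4 substrates, aged cultured cells had more Serpina3n (0.19 ± 0.05), C4b (0.47 ± 0.09) and C1s1 (0.30 ± 0.06) than young ones. They had less Lcn2 (−1.98 ± 0.22), Saa3 (−1.25 ± 0.22), Hp (−0.82 ± 0.05), Serping1 (−0.24 ± 0.03) and C3 (−0.13 ± 0.04). These are 8 calls of 9, where 15% of genes were called, 6.52% higher and 8.5% lower. In these means C4b, Hp and Serping1 had the same sign as in fresh cells, and Lcn2, Saa3, C3 and Serpina3n the opposite sign. Of these, the C3 call did not last: it ended in 16 of 23 fits without 1 library (adjusted p up to 0.123, without young SoftY replicate 2) and became 0.046 (adjusted p = 0.591) with SoftY left out of the means. Saa3 was −0.65 (adjusted p = 0.102) without SoftY.

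Such means join unlike substrates, as the single substrates show, in comparisons added after the data were seen. On SoftY 5 members were lower in aged cells and 0 higher, where 1.96% of genes were called, 0.654% higher and 1.31% lower: Saa3 (−3.05 ± 0.38), Lcn2 (−2.31 ± 0.41), Hp (−1.46 ± 0.10), C3 (−0.67 ± 0.09) and Serping1 (−0.51 ± 0.07). On StiffY 4 were higher and 1 lower, where 4.19% of genes were called, 2.02% higher and 2.16% lower: C1s1 (1.03 ± 0.13), C4b (0.92 ± 0.17), C3 (0.47 ± 0.08) and Serpina3n (0.38 ± 0.09) against Lcn2 (−2.52 ± 0.50). Serpina3n lost that call in 4 of 23 fits, without young StiffY replicate 1 or 3 or aged StiffY replicate 1 or 2 (adjusted p up to 0.0916). C3 therefore had opposite signs with age on the 2 gels of young ECM. On StiffY it was at 380 to 451 CPM in young and 563 to 599 CPM in aged cells, and on SoftY at 846 to 922 CPM in young and 505 to 600 CPM in aged cells. Serping1 had a positive value on StiffY that was not called (0.15 ± 0.06, edgeR adjusted p = 0.177). C4b was not called on SoftY (−0.03 ± 0.17, edgeR adjusted p = 0.976).

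On the gels with aged ECM 5 members were called on SoftA and 2 on StiffA. On SoftA C4b was higher (0.78 ± 0.17) and Hp (−0.96 ± 0.10), Lcn2 (−2.00 ± 0.41), Saa3 (−1.47 ± 0.41) and Serping1 (−0.30 ± 0.06) were lower, where 3.13% of genes were called, 1.46% higher and 1.67% lower. The Saa3 call, at an adjusted p of 0.0455, ended in 18 of 23 fits without 1 library (−0.86, adjusted p = 0.192 without young SoftA replicate 3), and that of C4b in 2 (0.55, adjusted p = 0.137 without young SoftA replicate 2, and 0.70, 0.0686 without aged SoftA replicate 2). On StiffA Hp (−0.76 ± 0.10) and Serping1 (−0.29 ± 0.06) were lower, where 2.94% of genes were called, 1.01% higher and 1.93% lower. Serping1 lost that call without aged StiffA replicate 3 (−0.25, adjusted p = 0.0624).

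**Figure D4:**
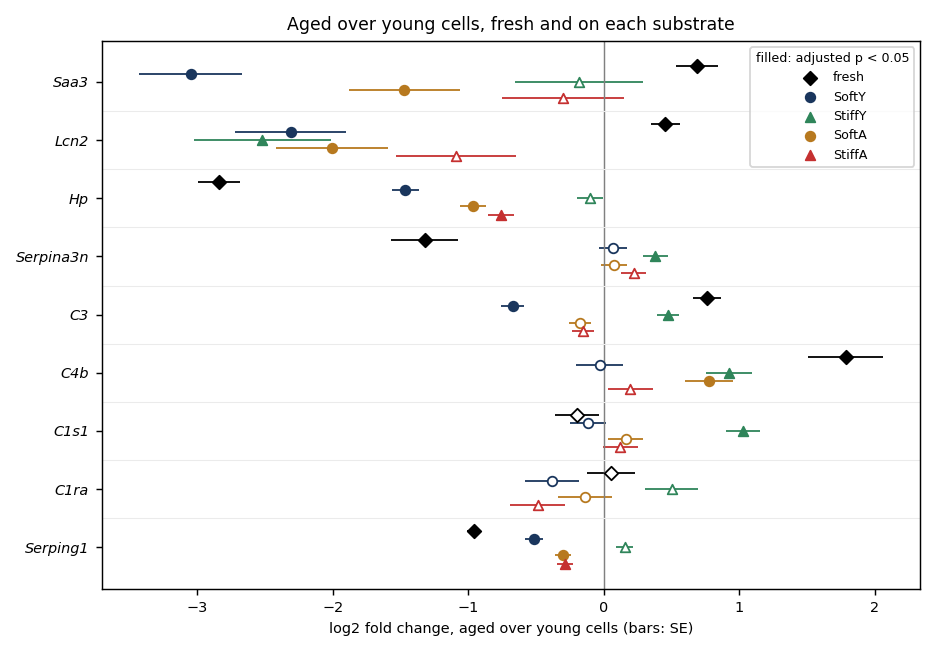
Log2 fold change of aged over young cells (x axis, bars SE) for the 9 members (y axis), with diamonds for fresh cells, circles for soft and triangles for stiff gels; filled points passed an adjusted p of 0.05. Hp is below 0 in every setting, from −2.84 in fresh cells to −0.10 on StiffY, while C3 is at 0.76 fresh, −0.67 on SoftY and 0.47 on StiffY.

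Of the other genes in culture, 5 of 13 other acute-phase genes were lower in aged cells and 2 higher. Steap4 (−0.65), Cp (−0.56) and Ptx3 (−0.76) were among those that fell. Of 30 inducers and transducers 13 were lower and 1, Jak1, higher (0.24), with Il6 at −0.48, Relb at −0.61 and Nfkbia at −0.59. Among regulators Clu was lower (−0.94), while Cd93 (1.07) and the membrane inhibitor of the terminal complex Cd59a (0.41) were higher. Endothelial markers were higher in aged cultured cells (6 of 7 tested, 0 lower), and fibroblast markers were lower (6 of 8, 0 higher), and their part in the members' values was not tested.

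Across groups, the order of the levels set young cells on SoftY apart. In that group Hp, C3, C1ra and Serping1 had their highest mean, with no overlap with the next group, and C4b had its highest mean with an overlap with aged cells on SoftY. For C1s1 it came second, after aged cells on StiffY, and the ranges of both overlapped. The lowest mean of each of these 6 genes was that of fresh cells of either age. Serpina3n had another order, with its highest mean in aged cells on StiffA, whose range overlapped that of aged cells on SoftA. Saa3 stood at 1.58 to 11.6 CPM over the 12 aged cultured libraries, and from one group to the next in order these overlapped each other and young cells on both stiff gels. For Lcn2 the 4 young cultured groups had the higher means, and the lowest of them, young cells on StiffA, overlapped aged cells on SoftY.

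Over the 8 cultured groups, the mean log2 CPM of most pairs of members other than Serpina3n was positively correlated. Of the 28 pairs of the other 8 genes, 26 had a positive Pearson correlation, with a median of 0.72, and the highest were 0.95 for Saa3 with Hp, 0.92 for C1ra with Serping1 and 0.91 for C4b with C1s1. Lcn2 was at −0.23 with C4b and −0.11 with C1s1, and C4b was at only 0.20 with Hp and 0.25 with Saa3. Young cells on SoftY were not left out of these correlations. Serpina3n had a negative correlation with each of the other members, from −0.63 with Serping1 to −0.04 with C4b. Over all 10 groups the pairs split along culture instead: C3 with C4b was at 0.95 and Lcn2 with Saa3 at 0.90, while Lcn2 with Serpina3n was at −0.88. These points share libraries and number only 8 or 10, so the correlations are descriptions.

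Among 8899 genes with a mean of at least 10 CPM, those whose 8 cultured group means were most like Serping1 were Lpl (r = 0.997), Mfap2 (0.991) and Rarres2 (0.988). For Saa3 they were Ksr1 (0.986), Hivep1 (0.978) and Stc1 (0.955), and for Hp Daam2 (0.975), Mxra8 (0.974) and Stc1 (0.970). C3 was most like Igsf10 (0.986) and Zfp608 (0.986), C4b like Dkk3 (0.972), and C1s1 like Pros1 (0.975). C1ra was nearest to Cirbp (0.987), Lcn2 to Dcakd (0.974) and Birc3 (0.966), and Serpina3n to Ddx50 (0.976). Each value is the highest or near the highest of 8899 candidates over 8 points, and describes these groups only.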

How the data were processed

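The submitters' processing notes name STAR 2.7.8a and the mm39 genome. The authors deposited raw counts per gene in 29 columns, all tied to a sample (0 others). No source used here gives the annotation release or the strand setting of the counting. In R 4.3.3, edgeR 4.0.16 fitted quasi-likelihood models with TMM factors after filterByExpr on the groups, with F tests. Benjamini-Hochberg adjustment ran over all genes of a comparison, with calls at an adjusted p under 0.05. Fits covered 6 fresh, 23 cultured or all 29 libraries. An SE was taken as the size of a log2 fold change divided by the root of its F, and an approximate 95% interval from the normal quantile. Means over substrates weigh groups equally. There were 13 planned comparisons and 6 added after the data were seen. Alternatives were RLE factors, no filter on low counts, DESeq2 1.42.0, a replicate block, other sets of libraries and leaving out each library. The fit was tested on simulated data. Lengths are union exon lengths from a GRCm38 annotation.

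The members and the 4 lists of 124 related genes (123 in the table) were chosen with earlier results of these data known. All 9 members are named in every comparison, and from each list up to 4 called genes with the smallest p. Some genes of these lists are not reported here. For likeness, the 3 genes with the highest Pearson correlation of group mean log2 CPM (prior count 2) were taken.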

Additional observations from a re-analysis of the deposited data

Results flagged for a closer look

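Differences between 2 effects that passed an edgeR adjusted p of 0.05 are collected here. The log2 change with stiffness differed between aged and young ECM in young cells by 1.04 for Hp, 0.94 for C3, 1.13 for C4b and 0.45 for Serping1. Averaged over both ECMs, the change with stiffness differed between aged and young cells by 2.02 for Saa3, 0.78 for Hp, 0.58 for C3, 0.55 for C1s1 and 0.34 for Serping1. The change with culture differed between aged and young cells by −1.96 for Saa3, −2.46 for Lcn2, 1.99 for Hp, 1.49 for Serpina3n, −0.92 for C3, −1.34 for C4b, 0.47 for C1s1 and 0.70 for Serping1. Hp, C3 and Serping1 stand in all 3 sets.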

How the results depend on the processing

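Of 91 called values of members, 91 kept direction and call with RLE factors and with the replicate block, 89 without a filter on low counts and 90 with DESeq2. In 3942 refits of member values without 1 library, 77 calls ended, 8 were added and 0 called values reversed. The value that reversed was C3 with age in culture, 0.046 with SoftY left out of the means.

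The labels do not say whether equal numbers share a preparation, and the main fits hold no replicate block. Same-numbered libraries had a mean correlation of 0.0056 in fresh, 0.060 in young cultured and 0.065 in aged cultured cells. For other pairs the mean was −0.0028, −0.029 and −0.033 in the same order. By the number in the library name, which differs for the second library of young cells on SoftY, the same-number mean in young cultured cells was 0.133. Other pairs had a mean of −0.066 there, and the lowest same-number value was −0.016. With the replicate block the member values kept all 91 calls, and 2 were added: C3 for ECM in young cells (−0.23, adjusted p = 0.0266) and Lcn2 for stiffness on young ECM (−1.24, adjusted p = 0.0294; not called by the library-number block, −0.98, adjusted p = 0.107). With the number in the library name as a block, added after the data were seen, aged over young ECM in young cells had 5 members called in place of 3. The same block gave 1630 genes in place of 956 in aged cells, where it added C4b (−0.34, adjusted p = 0.0315), 267 in place of 79 for stiffness by ECM in young cells, 5 in place of 3 in aged cells, and 31 in place of 12 for cell age by ECM.

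For stiffness by ECM in young cells, 186 genes were called without a filter, 152 with DESeq2 and 145 with all 29 libraries in 1 fit. In aged cells it was 23 without a filter and 15 with DESeq2. For cell age by ECM it was 111, 33 and 19 in the same order of 3 settings. For stiff over soft gels of aged ECM in young cells, 1 member was called without a filter and 2 with DESeq2.

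Leaving out 1 library gave 304 to 555 genes for stiffness in young cells, 179 to 346 genes and 3 to 6 members for ECM in young cells, and 596 to 1235 genes for ECM in aged cells. For stiffness by ECM it gave 47 to 211 genes and 2 to 5 members in young cells and 3 to 6 genes in aged cells. For cell age by stiffness it gave 3 to 5 members, and for cell age by ECM 3 to 33 genes. For aged over young cells it gave 3 to 5 members on SoftA and 1 to 2 on StiffA. The cause of these shifts was not tested. Depth limits Lcn2 and Saa3 in culture most, and young SoftY rests on 2 libraries.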
